A study of Mus musculus with 6 samples.

Results

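Potassium channel genes outside the KCNQ family were followed in the prefrontal cortex of mice that carry a Shank3 deletion and were given an inhibitor of the histone demethylase LSD1. Members were chosen by name: symbols that start with Kcn and a letter, without Kcnq symbols and without symbols that end in Rik or os or contain -ps, with at least 10 reads in at least 2 of the 6 count files. Of 54134 entries per file, 91 symbols matched the name rule, 74 passed the read minimum and 17 did not. The 74 are 73 protein-coding genes in 20 subfamilies, named by the letters between Kcn and the first digit, and 1 antisense RNA, Kcnmb4os2, which the rule keeps because its symbol ends in a digit. There were 3 groups of 2 mice aged 6 to 8 weeks, 1 library per mouse: wild type (a C57BL/6 and C3H cross) with vehicle, Shank3 +/∆C (1 normal copy of the synaptic scaffold gene Shank3 and 1 copy with the ∆C deletion) with vehicle, and Shank3 +/∆C with GSK-LSD1, a small-molecule LSD1 inhibitor. They are called wild type, Shank3 vehicle and GSK-LSD1 here. The labels give no dose, and the inhibitor was given to mutants only, so its effect in wild type was not measured. RNA came from whole tissue, not from sorted cells.

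Potassium channels let potassium ions leave the cell and so pull the membrane back toward rest. In cortical neurons, voltage-gated members (Kv channels, stems Kcna to Kcnd and Kcnh) end the action potential and set how fast a neuron can fire again, calcium- and sodium-activated members (Kcnma, Kcnn, Kcnt) link this to other ions, and inward rectifiers (Kcnj) and background channels (Kcnk) hold the resting potential. Some Kv genes (Kcnf, Kcng, Kcns, Kcnv) make silent subunits that form no channel alone and modify Kv2 channels built from Kcnb subunits. Accessory subunits (Kcnab, Kcnip, Kcne, Kcnmb) bind the pores and change their gating or surface level.

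The libraries held 14133834 to 28646960 counted reads, and 18705 genes were tested, among them all 74 members. Levels are CPM, reads per 1000000 counted reads after TMM scaling (a factor that corrects for differences in library makeup), with the SD over 2 libraries. Each log2 fold change is given ± its standard error (SE), taken as its size over the root of edgeR's F statistic, and the threshold is an adjusted p of 0.05 over all tested genes. With 2 mice per group the p-values rest on few animals and on a spread shared across genes. Shank3 did not pass in any comparison (153 and 159.9 CPM in wild type, 146 and 174 CPM in Shank3 vehicle and 159 and 148 CPM with GSK-LSD1). Exons outside the deletion are counted too, and the groups overlapped, so these levels leave the genotype unchecked. Kdm1a, which encodes LSD1, lay between 86.3 and 102 CPM. As a check for neurons, 10 excitatory neuron markers summed to 5783 and 5706 CPM in wild type, 4950.2 and 4794 CPM in Shank3 vehicle and 5117 and 4312 CPM with GSK-LSD1, and all 10 were detected. The brain region named by the label was not tested.

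Levels differed widely between members when compared per length (CPM per kb of exonic length, mean of 6 libraries). Kcnj4, an inward rectifier of forebrain neurons, had the highest level at 77.1 CPM per kb, followed by Kcnab2, the main beta subunit of Kv1 channels (57.4), and Kcnf1, a silent subunit (53.4). The next were Kcnv1 (32.5) and the background channel Kcnk1 (30.6). At the lower end were Kcnh8 (0.102), Kcnj5 (0.106) and Kcnk5 (0.136).

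**Figure D1:**
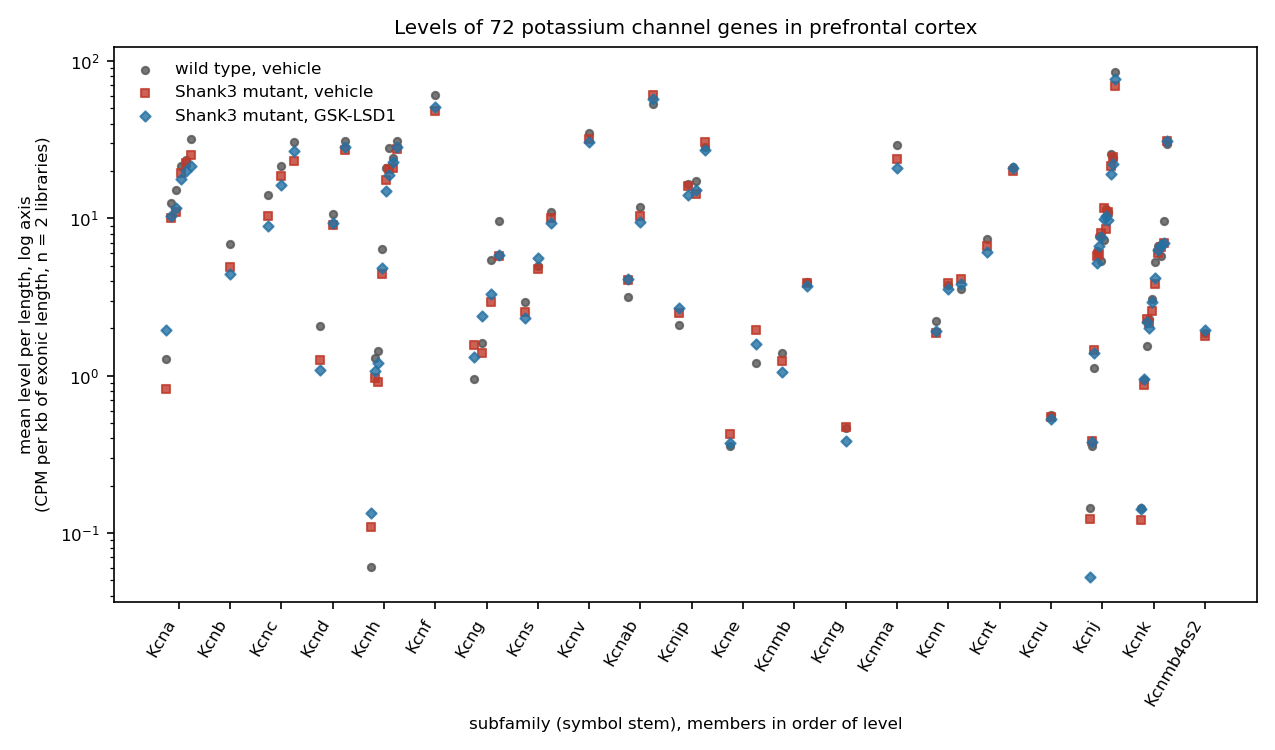
Mean level per length of 72 of the 74 members by subfamily (log axis, CPM per kb of exonic length, mean of 2 libraries in each of the 3 groups, members of a stem in order of level). Kcnj4, Kcnab2 and Kcnf1 lead, and Kcnj and Kcnh each span from under 1 to over 20 CPM per kb.

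By summed reads (not per length), the ether-a-go-go stem Kcnh took 13.4% to 14.8% of the members' CPM across the 6 libraries, Kcnj 11.3% to 13.0%, Kcna 10.8% to 12.4%, Kcnab 6.61% to 8.87% and Kcnma1 alone 7.25% to 8.65%. Kcne, Kcnrg and Kcnu were the least, each at no more than 0.0988% of the members' CPM. The 74 members summed to 5969.8 and 5647 CPM in wild type, 4989.9 and 5049 CPM in Shank3 vehicle and 4831 and 4729 CPM with GSK-LSD1. Each of the 4 mutant libraries was below both wild-type libraries, and the means were 5808 ± 229, 5019 ± 41.9 and 4780.0 ± 72.5 CPM (SD, n = 2 per group). With 2 libraries against 2 an exact permutation test cannot give a two-sided p below 0.333, so the sum was not tested.

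In Shank3 vehicle, 4 potassium channel genes fell against wild type and 0 rose: Kcnb2, a Kv2 delayed rectifier pore, the silent Kv2 modifiers Kcng1 and Kcng3, and the ether-a-go-go channel Kcnh1. Over all tested genes 0.994% fell and 0.278% rose, so 4 of 74 (5.41%) is above that background (1.27% in either direction), and the remaining 70 did not pass. At an unadjusted p under 0.05 there were 24 lower and 4 higher members, where all genes gave 8.24% and 5.81%. The members' median log2 fold change was -0.16, against 0.016 for all genes, and with library size scaling it was -0.089 against 0.089. In 54 of 74 the value was negative, where 47.7% of all genes were, and it was negative in 47 with scaling by library size alone. Both mutant libraries lay below both wild-type libraries in 35 members (47.3%, against 23.1% of all genes) and above them in 8 (10.8%, against 23.1%). In bulk tissue fewer cells of a type and less RNA per cell cannot be told apart.

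**Figure D2:**
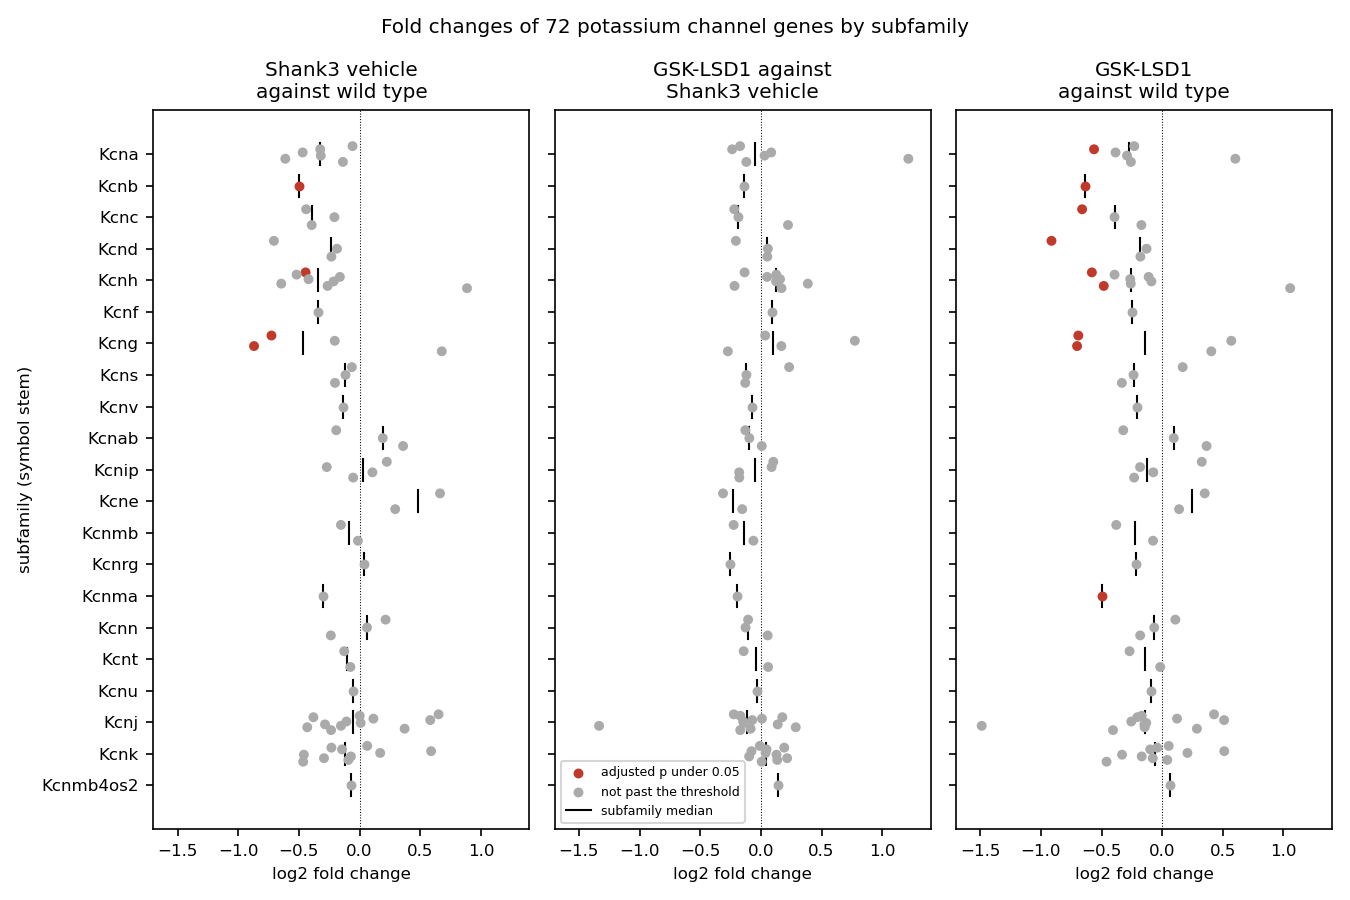
Log2 fold change of 72 of the 74 members in the 3 comparisons, by subfamily (points; red past an adjusted p of 0.05, grey not; black bars, medians of the points shown). In both comparisons with wild type the medians of Kcna, Kcnb, Kcnc, Kcnd and Kcnh lie left of 0, and between treated and untreated mutants no point is red.

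Kcnb2, on chromosome 1 from 15287254 to 15723750 (plus strand) in GRCm38, was counted at 110.3 and 99.1 CPM in wild type, 70.8 and 77.3 CPM in Shank3 vehicle and 68.0 and 66.4 CPM with GSK-LSD1. All 4 mutant libraries were below both wild-type ones, and the log2 fold change in Shank3 vehicle was -0.50 ± 0.11 (edgeR adjusted p = 0.0302). Kcng3, on chromosome 17 from 83585957 to 83631895 (minus strand), stood at 19.9 and 16.5 CPM in wild type, 9.42 and 10.4 CPM in Shank3 vehicle and 10.4 and 11.9 CPM with GSK-LSD1, which was the largest fall among the 4 on the log2 scale (-0.87 ± 0.17, edgeR adjusted p = 0.0267). Kcng1, on chromosome 2 from 168260117 to 168281736 (minus strand), stood at 50.8 and 35.6 CPM in wild type, 27.8 and 24.1 CPM in Shank3 vehicle and 28.3 and 24.7 CPM with GSK-LSD1. Its wild-type libraries were far apart, yet both were above every mutant library (-0.73 ± 0.16, edgeR adjusted p = 0.0369). Kcnh1, whose EAG channel opens slowly at voltages near rest, lies on chromosome 1 from 192190774 to 192510159 (plus strand) and stood at 219.7 and 192 CPM in wild type, 148 and 154 CPM in Shank3 vehicle and 140.2 and 135 CPM with GSK-LSD1. Its mutant libraries were also all below wild type (-0.45 ± 0.11, edgeR adjusted p = 0.0470).

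These 4 calls rested on single libraries and settings. Calls over all genes moved as well, from 1.27% to 0.187% with library size scaling, 0.0588% without the robust option and 3.22% by DESeq2. The number of members called was 0 with scaling by library size alone or a fit without the robust option, 10 by DESeq2, and 0 without wild-type library 1, without Shank3 vehicle library 1 or without its library 2. It was 10 (8 lower and 2 higher) without wild-type library 2, and 7 (5 lower and 2 higher) without GSK-LSD1 library 2, while all 4 kept a negative value in each of 16 alternatives.

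**Figure D3:**
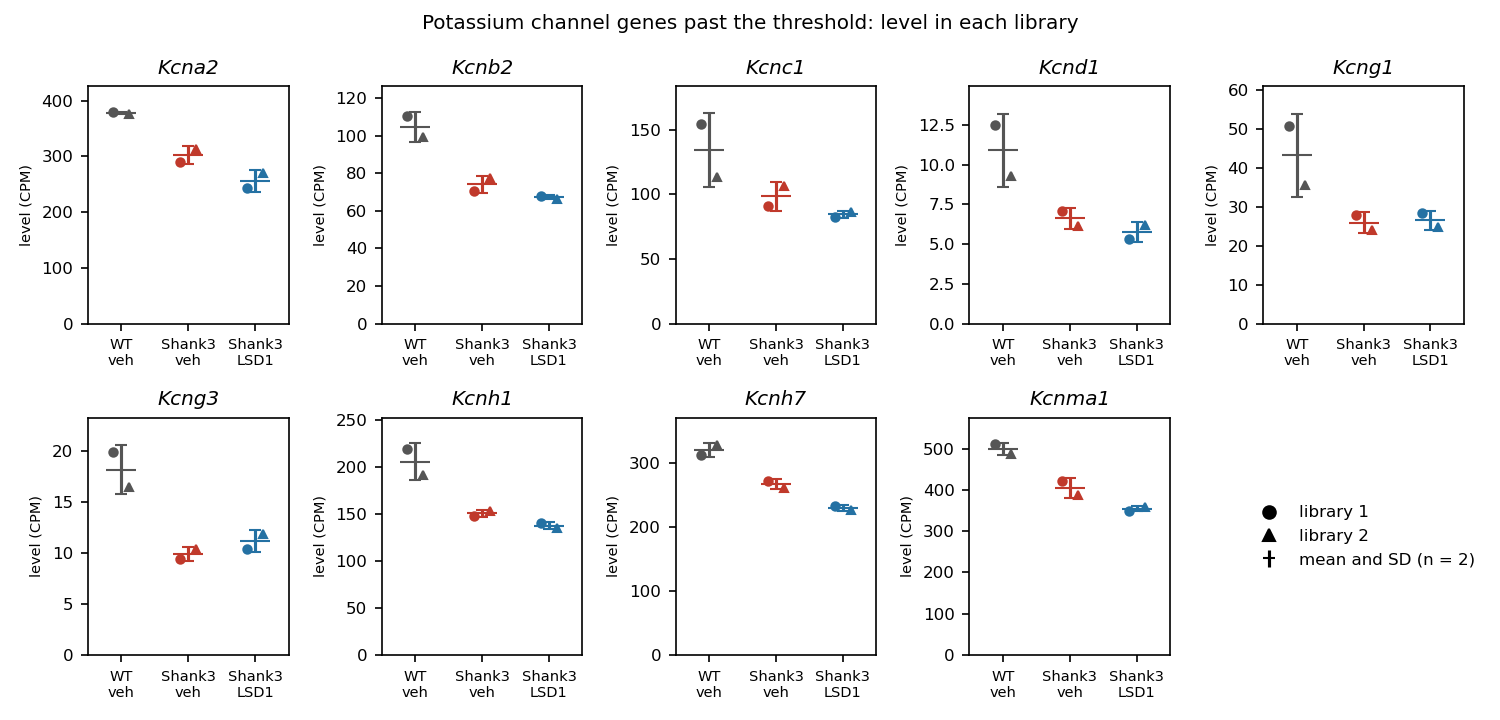
Level (CPM, linear axis from 0) of 9 members that passed in a comparison with wild type, in each library (circle 1, triangle 2) with the mean and SD (n = 2). In each panel all 4 mutant libraries lie below both wild-type libraries.

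The bases before the starts of Kcng3 and Kcnh1 are shown because both genes fell against wild type and have an entry in the RefSeq promoter table (GRCm38.p6). Kcng3 is given for chr17:83631896-83632145 on the minus strand and Kcnh1 for chr1:192190527-192190773 on the plus strand, 5′ to 3′ toward the start. Capitals mark GC boxes, the letters GGGCGG on either strand (CCGCCC on the other).
Kcng3: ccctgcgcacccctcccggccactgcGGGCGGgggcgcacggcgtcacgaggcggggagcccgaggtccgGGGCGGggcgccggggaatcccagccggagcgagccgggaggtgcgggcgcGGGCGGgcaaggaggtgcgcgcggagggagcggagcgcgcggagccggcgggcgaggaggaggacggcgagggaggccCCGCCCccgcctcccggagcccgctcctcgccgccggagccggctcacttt
Kcnh1: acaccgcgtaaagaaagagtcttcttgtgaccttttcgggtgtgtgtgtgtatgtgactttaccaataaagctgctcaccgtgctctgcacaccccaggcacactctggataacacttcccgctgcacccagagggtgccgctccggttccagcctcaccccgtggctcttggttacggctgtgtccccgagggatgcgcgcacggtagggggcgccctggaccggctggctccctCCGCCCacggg
The Kcng3 stretch holds 4 GC boxes and is 82.4% G and C, and the Kcnh1 stretch holds 1 and is 61.9% G and C. In the 250 bases before the start, GGGCGG was found in 32.7% of all 32851 promoter entries and in 38 of the 77 entries (49.4%) of the 55 members in the table. It was in 5 of the 6 listed genes among the 11 that passed in a comparison with wild type (Kcnc1, Kcng3, Kcnh1, Kcnh7 and Kcnma1, not Kcna2). TATAAA was in 2 member entries (2.60%, against 12.4% of all) and TGACGTCA in 0 (against 1.55%), each searched on both strands. These matches describe letters in a window and say nothing of a factor's binding. Median GC content was higher in the member promoters than in all promoters. GGGCGG holds only G and C and TATAAA only T and A. Whether the motif percentages of members and all entries differ beyond this base composition was not tested.

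Most voltage-gated pore genes had negative values in Shank3 vehicle, and few passed. Of 23 members of Kcna, Kcnb, Kcnc, Kcnd and Kcnh, 22 had a negative log2 fold change (21 with library size scaling), against 47.7% of all genes, 2 passed as lower, against 0.994%, and the median was -0.32. It was -0.25 with scaling by library size alone and -0.27 when fits were corrected for GC content and length. In 19 of the 23 both mutant libraries were below both wild-type ones, and in 0 above, where all genes gave 23.1% and 23.1%. The exception in sign was Kcnh8, which had 3 to 16 reads per library.

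Among the Shaker-type Kcna genes, 6 of 6 were negative (5 with library size scaling) with a median of -0.32. By edgeR 0 passed and 4 were lower at an unadjusted p under 0.05 (8.24% of all genes were), while DESeq2 called 1 (Kcna2). Kcna2, a low-threshold channel of axons and the subfamily's most abundant member per length, stood at 379.8 and 377 CPM in wild type, 291 and 313 CPM in Shank3 vehicle and 242 and 270.2 CPM with GSK-LSD1, so that the 3 groups did not overlap (-0.32 ± 0.11 for Shank3 vehicle against wild type, unadjusted p = 0.00716 and adjusted p = 0.157 by edgeR). Kcna4, an A-type channel that closes soon after it opens, stood at 60.03 and 61.8 CPM in wild type against 48.6 and 49.0 CPM in Shank3 vehicle (-0.32 ± 0.10, edgeR adjusted p = 0.148). Kcna3 stood at 31.0 and 26.7 CPM in wild type against 23.9 and 17.7 CPM in Shank3 vehicle, also without overlap (-0.47 ± 0.15). Kcna1, which pairs with Kcna2 in axons, overlapped, with 115 and 109 CPM in wild type against 116 and 98.6 CPM in Shank3 vehicle.

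Of the Kcnc genes, whose fast Kv3 channels let interneurons fire at high rates, 4 of 4 were negative and 0 passed by edgeR or limma-voom, while 2 had an unadjusted p under 0.05 and DESeq2 called Kcnc1. Kcnc1 stood at 154 and 114 CPM in wild type against 90.6 and 106 CPM in Shank3 vehicle (-0.44 ± 0.13) and Kcnc4 at 125 and 98.2 CPM in wild type against 86.1 and 82.9 CPM in Shank3 vehicle (-0.40 ± 0.12), both without overlap. Of the Kcnd genes, which form the A-type Kv4 channels of dendrites, 3 of 3 were below wild type without overlap (23.1% of all genes were). By edgeR, DESeq2 or limma-voom 0 passed, and 2 were lower at an unadjusted p under 0.05 by edgeR. Over all genes 8.24% were lower at that p, which is the background for the 2 Kcnc genes too. Kcnd1, the least abundant, stood at 12.5 and 9.29 CPM in wild type against 7.08 and 6.17 CPM in Shank3 vehicle (-0.71 ± 0.21), while Kcnd2, the most abundant, differed less, with 161 and 159 CPM in wild type against 141 and 140.1 CPM in Shank3 vehicle.

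In the Kcnh stem 7 of 8 were negative with a median of -0.34. Beside Kcnh1, the erg-type channels Kcnh2 (31.5 and 30.0 CPM in wild type against 16.8 and 26.1 CPM in Shank3 vehicle, -0.52 ± 0.17), Kcnh6 (5.41 and 4.73 CPM in wild type against 3.72 and 2.72 CPM in Shank3 vehicle, -0.65 ± 0.27) and Kcnh7 (312 and 328 CPM in wild type against 272 and 261 CPM in Shank3 vehicle, -0.26 ± 0.10) were below wild type without overlap and did not pass. Kcnh3, the stem's highest per length, overlapped, with 187 and 169.8 CPM in wild type against 143 and 175 CPM in Shank3 vehicle.

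The silent subunits were mostly lower, with 8 of 9 negative and a median of -0.20 (-0.13 with library size scaling). Kcnf1 stood at 313 and 269.8 CPM in wild type against 226 and 234 CPM in Shank3 vehicle (-0.34 ± 0.11, not past the threshold). Kcns1, Kcns2 and Kcns3 had a median of -0.12 (-0.044 with library size scaling) and none passed, and Kcnv1 overlapped, with 147 and 175 CPM in wild type against 158 and 135 CPM in Shank3 vehicle. Kcng4 lay the other way from Kcng1 and Kcng3, with 2.53 and 4.73 CPM in wild type against 5.42 and 6.58 CPM in Shank3 vehicle (0.68 ± 0.29, unadjusted p = 0.0317 and adjusted p = 0.293 by edgeR). Summed over 4 genes, the Kcng stem was 77.9 and 61.8 CPM in wild type, 46.9 and 45.2 CPM in Shank3 vehicle and 49.0 and 50.8 CPM with GSK-LSD1.

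Accessory subunits lay on both sides of 0. Of 12 in the stems Kcnab, Kcne, Kcnip, Kcnmb and Kcnrg, 5 were negative and 7 positive in Shank3 vehicle, with a median of 0.070 and 0 past the threshold by edgeR, DESeq2 or limma-voom (1 had an unadjusted p under 0.05 by edgeR). That median was 0.14 with library size scaling, where 3 of 12 were negative, and 0.033 with length and GC offsets. Kcnab2 stood at 285 and 313 CPM in wild type against 339 and 344 CPM in Shank3 vehicle and Kcnab1 at 100.5 and 104 CPM in wild type against 87.7 and 91.0 CPM in Shank3 vehicle, in opposite directions and each without overlap. Among the calcium-binding Kcnip proteins that attach to Kv4 pores, Kcnip2 stood at 63.9 and 56.9 CPM in wild type against 44.5 and 55.4 CPM in Shank3 vehicle (-0.27 ± 0.12) and Kcnip3, which also acts in the nucleus, at 100.4 and 102 CPM in wild type against 117 and 100.8 CPM in Shank3 vehicle. Kcne1l, an X-linked member of the small Kcne subunits, was low, at 1.51 and 2.24 CPM in wild type against 2.62 and 3.45 CPM in Shank3 vehicle. Whether pores and accessory subunits differ in their response was not tested.

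Kcnma1, the pore of the large-conductance calcium-activated (BK) channel, on chromosome 14 from 23289431 to 24014491 (minus strand), stood at 510.4 and 488 CPM in wild type, 423 and 388 CPM in Shank3 vehicle and 350.2 and 358 CPM with GSK-LSD1, with no overlap among the 3 groups (-0.30 ± 0.11 for Shank3 vehicle against wild type, edgeR adjusted p = 0.188). In that comparison DESeq2 called Kcnma1 lower and limma-voom did not. Its neuronal beta subunit Kcnmb4 overlapped throughout, between 11.9 and 14.1 CPM. The small-conductance genes Kcnn1, Kcnn2 and Kcnn3 and the sodium-activated Kcnt1 and Kcnt2 had values between -0.24 and 0.21, and none reached an unadjusted p under 0.05. Kcnu1, known as a sperm channel, lay between 1.77 and 2.31 CPM.

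The inward rectifiers divided by gene. Of 12 Kcnj genes 6 were negative and 6 positive, and their median of -0.054 turned to 0.020 with library size scaling. By edgeR 0 passed and 5 had an unadjusted p under 0.05, while DESeq2 called Kcnj10 and Kcnj16 higher and limma-voom called 0. Kcnj6, a G protein-gated channel subunit that transmitters open, stood at 94.9 and 80.6 CPM in wild type against 70.1 and 59.8 CPM in Shank3 vehicle (-0.43 ± 0.13), and its partner Kcnj3 overlapped, with 115 and 138 CPM in wild type against 128 and 127 CPM in Shank3 vehicle. Kcnj4 stood at 193 and 173 CPM in wild type against 149 and 151 CPM in Shank3 vehicle (-0.29 ± 0.11) and Kcnj12 at 21.3 and 21.3 CPM in wild type against 14.8 and 18.0 CPM in Shank3 vehicle (-0.38 ± 0.15). Kcnj10, the inward rectifier with which astrocytes take up potassium, lay the other way at 31.6 and 47.6 CPM in wild type, 58.8 and 66.7 CPM in Shank3 vehicle and 49.1 and 58.7 CPM with GSK-LSD1, above wild type in all 4 mutant libraries (0.65 ± 0.17, edgeR adjusted p = 0.109). Its partner subunit Kcnj16 did likewise at 16.8 and 25.1 CPM in wild type, 31.3 and 32.3 CPM in Shank3 vehicle and 31.5 and 28.8 CPM with GSK-LSD1 (0.58 ± 0.16, edgeR adjusted p = 0.0806). Both passed by DESeq2, without wild-type library 2 and without GSK-LSD1 library 2, and neither passed without wild-type library 1.

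Markers of astrocytes lay in the same direction as Kcnj10 and Kcnj16. The 10 astrocyte markers summed to 3911 and 4824 CPM in wild type, 5349 and 5535 CPM in Shank3 vehicle and 5331 and 5386 CPM with GSK-LSD1, and none was at 0. In Shank3 vehicle 3 of 10 passed as higher, against 0.278% of all genes, and 9 of 10 were positive. Excitatory neuron markers lay the other way, with 9 of 10 negative (47.7% of all genes were), 1 of 10 passing as lower (0.994%), and the sums given above. Oligodendrocyte markers, all 10 detected, summed to 2606 and 2395 CPM in wild type, 6021 and 6066 CPM in Shank3 vehicle and 2435 and 5727 CPM with GSK-LSD1, with treated library 1 near wild type and treated library 2 near Shank3 vehicle. Microglia markers summed to 361 to 419 CPM in wild type and 418 to 486 CPM in Shank3 vehicle. Positive values in Shank3 vehicle were not particular to astrocyte markers. They were found in 10 of 10 oligodendrocyte, 9 of 10 microglia, 7 of 8 oligodendrocyte precursor, 7 of 9 endothelial and 5 of 8 pericyte markers. The part of these markers in the channel results was not tested.

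**Figure D4:**
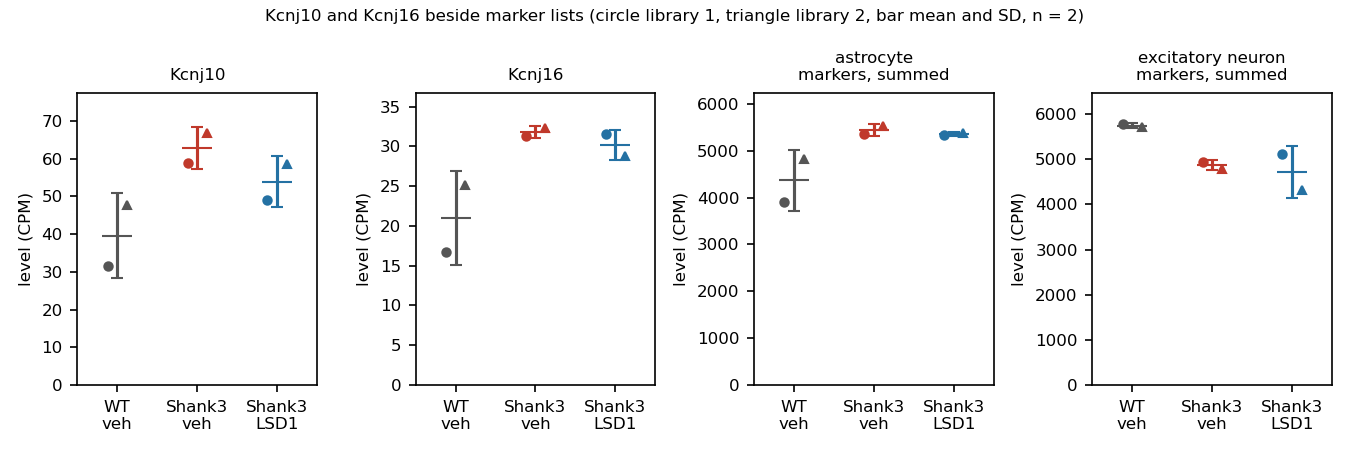
Level (CPM, linear axis from 0) of Kcnj10 and Kcnj16 and the summed level of the 10 astrocyte and the 10 excitatory neuron markers in each library, with the mean and SD (n = 2). Wild-type library 1 is the lowest for both channels and for the astrocyte markers, and all 4 mutant libraries lie below wild type for the neuron markers.

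Of 10 background channel genes 7 were negative, 0 passed by edgeR, DESeq2 or limma-voom (3 had an unadjusted p under 0.05 by edgeR) and the median was -0.12, which became -0.045 with library size scaling and -0.067 with length and GC offsets. The acid-sensitive channels Kcnk3 (24.4 and 17.8 CPM in wild type against 15.1 and 15.3 CPM in Shank3 vehicle, -0.46 ± 0.16) and Kcnk9 (139 and 98.5 CPM in wild type against 78.2 and 93.3 CPM in Shank3 vehicle, -0.47 ± 0.18) were below wild type without overlap. Kcnk13, a channel of microglia, was above it, with 5.20 and 4.37 CPM in wild type against 6.71 and 7.57 CPM in Shank3 vehicle (0.59 ± 0.24). Kcnk1, the highest per length, did not separate, with 64.1 and 69.0 CPM in wild type against 72.5 and 66.7 CPM in Shank3 vehicle. The antisense RNA Kcnmb4os2, which shares 693 exonic bases with Kcnmb4 on the other strand, lay between 3.40 and 4.45 CPM in all libraries.

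Between treated and untreated mutants no potassium channel gene passed the threshold. By edgeR 0 of 74 passed (6 at an unadjusted p under 0.05, or 8.11%, against 5.70% of all genes), and DESeq2 and limma-voom also called 0. Of the 6, 3 were lower and 3 higher, where all genes gave 2.52% and 3.18%. Over all genes 0.102% rose and 0.00535% fell. The members' median was -0.066, against -0.00070 for all genes, and it was -0.015 without GSK-LSD1 library 2 and -0.039 with length and GC offsets. In 40 of 74 the value was negative, where 50.1% of all genes were. In 20 members both treated libraries were below both untreated mutants (27.0%, against 16.6%) and in 11 above (14.9%, against 17.0%).

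The 6 members at an unadjusted p under 0.05 included Kcna5, Kcng2 and Kcnj6, which were higher in treated mutants, and Kcna2 (-0.24 ± 0.11) and Kcnh7 (-0.22 ± 0.10), which were lower. Kcna5, a delayed rectifier better known from heart muscle, was low at 3.70 and 3.58 CPM in wild type, 2.07 and 2.68 CPM in Shank3 vehicle and 4.66 and 6.47 CPM with GSK-LSD1. Both treated libraries were above every other library, at 2.32-fold of the untreated mutants (1.22 ± 0.28, edgeR adjusted p = 0.179). It passed in 1 of 16 alternatives, the fit without a filter on low counts. Kcng2, a silent subunit, stood at 4.65 and 4.95 CPM in wild type, 4.23 and 4.13 CPM in Shank3 vehicle and 6.23 and 8.18 CPM with GSK-LSD1 (0.77 ± 0.23, edgeR adjusted p = 0.499). Kcnj6 stood at 68.9 and 90.004 CPM in the treated libraries, the first of which overlapped the untreated mutants (0.29 ± 0.13).

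The 4 genes that were lower in untreated mutants than in wild type did not differ past the threshold between treated and untreated mutants. The log2 fold changes were -0.14 ± 0.11 for Kcnb2, 0.035 ± 0.16 for Kcng1, 0.17 ± 0.18 for Kcng3 and -0.13 ± 0.11 for Kcnh1, each within 2 SE of 0. For Kcng3 both treated libraries were above both untreated ones, by less than a CPM between the nearest. For Kcnb2 and Kcnh1 both were below. A difference that misses the threshold does not show equal levels.

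Against wild type, 11 members fell in the treated mutants and 0 rose, among them Kcna2, Kcnb2, Kcnc1, Kcnd1, Kcng1, Kcng3, Kcnh1, Kcnh7 and Kcnma1. That is 14.9% of 74, where 1.99% of all genes fell and 0.636% rose. The median was -0.18 against 0.018 for all genes, and with library size scaling it was -0.095 against 0.099. In 54 of 74 the value was negative (48 with library size scaling), against 47.4% of all genes, and 36 members were below without overlap (48.6%, against 22.4%) and 11 above (14.9%, against 23.5%). At an unadjusted p under 0.05 there were 22 lower and 4 higher members, where all genes gave 8.62% and 7.11%. This comparison uses the same wild-type libraries as the one above, so the 2 are not independent.

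By role, the voltage-gated pores held 8 of the 11. Kcnb2 fell with a log2 fold change of -0.64 ± 0.11 (edgeR adjusted p = 0.00546, the smallest among the members). Of the Kv3 genes, Kcnc1 on chromosome 7 from 46396497 to 46438704 (plus strand) stood at 154 and 114 CPM in wild type against 82.8 and 86.6 CPM with GSK-LSD1 (-0.66 ± 0.13, edgeR adjusted p = 0.0181). Kcnc2 did not pass at 155 and 151 CPM in wild type against 125 and 108 CPM with GSK-LSD1 (-0.39 ± 0.11, edgeR adjusted p = 0.0558), and Kcnc4 overlapped wild type. Kcnc1 and Kcnc2 are best known from fast-spiking interneurons. The 12 inhibitory neuron markers summed to 879.7 and 898 CPM in wild type, 771 and 862 CPM in Shank3 vehicle and 758 and 875 CPM with GSK-LSD1, with treated library 2 close to wild type and treated library 1 below it. Of the 12, 8 had a positive log2 fold change in Shank3 vehicle, with a median of 0.11 and 1 past the threshold as lower. With GSK-LSD1 against wild type 6 were positive and 1 passed as lower, and the part of these markers in the Kcnc values was not tested.

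Kcna2, on chromosome 3 from 107101146 to 107115005 (plus strand), fell with a log2 fold change of -0.56 ± 0.11 (edgeR adjusted p = 0.0120), with mean levels of 378 ± 2.10 CPM in wild type and 256 ± 19.6 CPM with GSK-LSD1 (SD, n = 2). Kcnd1, on chromosome X from 7822289 to 7838280 (plus strand), had the largest fall of those named at -0.91 ± 0.22 (12.5 and 9.29 CPM in wild type against 5.34 and 6.20 CPM with GSK-LSD1, edgeR adjusted p = 0.0303). Kcnh1 fell as well (-0.58 ± 0.11, edgeR adjusted p = 0.0101), and Kcnh7, an erg-type channel on chromosome 2 from 62693414 to 63184287 (minus strand), stood at 312 and 328 CPM in wild type, 272 and 261 CPM in Shank3 vehicle and 232 and 226 CPM with GSK-LSD1 (-0.48 ± 0.10, edgeR adjusted p = 0.0191). The 3 groups of Kcnh7 did not overlap. The silent subunits Kcng1 (-0.69 ± 0.16, edgeR adjusted p = 0.0292) and Kcng3 (-0.70 ± 0.17, edgeR adjusted p = 0.0369) also fell. Kcnma1 fell (-0.50 ± 0.11, edgeR adjusted p = 0.0192), the 1 of 7 genes in the stems Kcnma, Kcnn, Kcnt and Kcnu to do so.

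Members above wild type at an unadjusted p under 0.05 that did not pass were Kcnj16 (0.51 ± 0.16, edgeR adjusted p = 0.107), Kcnj10 (0.43 ± 0.17), Kcna5 (0.60 ± 0.27) and Kcng2 (0.57 ± 0.23), all without overlap. None of 12 Kcnj, 10 Kcnk or 12 accessory genes passed by edgeR with the filter on low counts in this comparison, nor by DESeq2 or limma-voom. At an unadjusted p under 0.05 there were 3, 1 and 1 by edgeR, where 15.7% of all genes were. With no filter on low counts edgeR called Kcnj9 and Kcnk9 lower and Kcnj10 and Kcnj16 higher, where 2.98% of all genes passed.

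Without wild-type library 1, 0 of these members passed (and 6 of all genes), and with library size scaling 5 did. Without GSK-LSD1 library 1 the count was 7 and without its library 2 it was 4. Kcna2, Kcnb2 and Kcnh1 passed in 15 of 16 alternatives each, failing only without wild-type library 1. Kcnc1, Kcng1, Kcnh7 and Kcnma1 passed in 12 each, Kcnd1 in 10 and Kcng3 in 9. Kcnh7 and Kcnma1 did not pass with length and GC offsets, Kcnd1 did not by DESeq2 or limma-voom, and Kcng3 did not with the replicate block or with the 4 libraries alone.

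Partner genes with other names were counted beside the members. Of 22 accessory and anchoring genes of potassium channels, 21 were tested (Lrrc52 had 0 or 1 read per library). In Shank3 vehicle 1 fell, where 0.994% of all genes did, and 0 rose, with a median of -0.17 (-0.098 with library size scaling and -0.11 with length and GC offsets). With GSK-LSD1 against wild type 3 fell, where 1.99% of all genes did, and 0 rose, with a median of -0.23 (-0.15 and -0.14 under those settings). Between treated and untreated mutants 0 passed by edgeR, 0 had an unadjusted p under 0.05, and DESeq2 and limma-voom called 0. Lingo1, a neuronal membrane protein that can bind BK channels, stood at 456 and 357 CPM in wild type, 295 and 274 CPM in Shank3 vehicle and 271 and 277 CPM with GSK-LSD1 (Shank3 vehicle -0.51 ± 0.12, edgeR adjusted p = 0.0445). With GSK-LSD1 its change from wild type was -0.57 ± 0.12 (edgeR adjusted p = 0.0181). Ank3, the anchor of channels at the start of the axon, stood at 920.2 and 801 CPM in wild type against 539 and 659 CPM with GSK-LSD1 (-0.52 ± 0.13, edgeR adjusted p = 0.0322). Abcc8, the sulfonylurea receptor that pairs with Kcnj11, stood at 37.1 and 37.5 CPM in wild type against 20.5 and 28.6 CPM with GSK-LSD1 (-0.61 ± 0.16, edgeR adjusted p = 0.0451). In Shank3 vehicle Abcc8 was also below wild type without overlap, at 24.8 and 30.9 CPM, and did not pass (-0.42 ± 0.15). Kcnj11 overlapped between wild type and Shank3 vehicle, at 39.2 and 41.6 CPM in wild type against 39.1 and 41.9 CPM in Shank3 vehicle. With GSK-LSD1 both Kcnj11 libraries were below both wild-type ones, and Kcnj11 did not pass. Amigo1, a partner of Kv2 channels, stood at 117 and 110.0 CPM in wild type, 89.0 and 99.0 CPM in Shank3 vehicle and 89.6 and 83.4 CPM with GSK-LSD1, below wild type in all 4 mutant libraries without passing. Without wild-type library 1 no partner passed in any comparison, and in Shank3 vehicle none passed without either mutant library.

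Members differed from other genes in length and base composition. Their median exonic length was 4.53 kb against 3.79 kb over the tested genes found in the annotation (98.4%), and their median GC content 52.3% against 49.2%. Across the 74 members, Spearman's correlation of the log2 fold change with exonic length was -0.27 for Shank3 vehicle against wild type and -0.42 for GSK-LSD1 against wild type, beside -0.16 and -0.20 across all genes. These correlations are across genes that share the same libraries and carry no test. When length and GC content were corrected for, 3 and 8 members fell in those comparisons and 0 rose. Of all genes 0.748% and 2.16% then passed in either direction. The members' medians were -0.18 and -0.17. Exons of Kcnh7 and Kcnma1 overlap those of a gene on the other strand by 696 and 1016 bases, and since the libraries were strand-specific but the strand setting of the count is not given in the sources used here, reads there could come from either gene.

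The read minimum was met narrowly by Kcnk5, with 16 and 10 reads in its highest 2 libraries, and by Kcnh8, with 16 and 15. Just outside it were Kcnj13, with 14 and 8 reads, Kcne3, with 11 and 6, and Kcnmb1, with 10 and 9. The other 14 below the minimum were Kcna7, Kcna10, Kcne1, Kcne2, Kcnj1, Kcnj15, Kcnk7, Kcnk15, Kcnk16, Kcnk18, Kcnmb3, Kcnmb4os1, Kcnn4 and Kcnv2, each with at most 5 reads in any library. Kcne1, Kcnj1 and Kcnk16 were at 0 in all 6, which at 3 counts per library allows up to 0.105 to 0.212 CPM, counting error only. The kept members without levels above (Kcna6, Kcnab3, Kcnd3, Kcne4, Kcnh4, Kcnh5, Kcnip1, Kcnip4, Kcnj2, Kcnj8, Kcnj9, Kcnj14, Kcnk2, Kcnk4, Kcnk6, Kcnk10, Kcnk12, Kcnmb2 and Kcnrg) passed in no comparison by the edgeR fit of all 6 libraries with its filter on low counts. They lay between 0.477 CPM (Kcnrg) and 131 CPM (Kcna6) in single libraries.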

How the data were processed

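RNA was extracted from prefrontal cortex, depleted of ribosomal RNA and sequenced as strand-specific libraries, per the labels' protocols. The authors deposited 1 file of read counts per gene and library. The submitters' processing notes name cutadapt, TopHat2, SAMtools, featureCounts and edgeR with mm10 and GRCm38. Versions, gene annotation and the strand setting of the count were not given in the sources used here. The deposited counts sum to 14133834 to 28646960 per library.

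Here the counts of all 6 libraries were fitted together in edgeR 4.0.16 (R 4.3.3) with filterByExpr, TMM scaling and the robust quasi-likelihood test, 1 coefficient per group and no covariate. Of all entries 18705 were tested in each of 3 comparisons, and p-values were adjusted by Benjamini-Hochberg over all of them. Gene length, GC content and coordinates came from GENCODE M21 (GRCm38). The script was tested on simulated counts. Alternatives were RLE and library size scaling, other count filters, DESeq2 1.42.0, limma-voom 3.58.1, a fit without the robust option, 4 libraries alone, a replicate block, length and GC offsets, and leaving out each library. Genes named are, per subfamily, the member of highest level and up to 2 with the smallest p in a comparison, plus those that passed, except 2 members that count in all totals and are not reported here by name. Other members are named with levels or ranges after their values were seen. The members and gene lists were chosen with earlier results of these data known.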

Additional observations from a re-analysis of the deposited data

How the results depend on the processing

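The counts of members past the threshold moved with the scaling, the filter on low counts, the tool, the robust option and single libraries. For Shank3 vehicle against wild type the count of 4 became 0 with library size scaling, 14 with no filter on low counts, 10 by DESeq2, 2 by limma-voom and 0 without the robust option, and lay between 0 and 10 when each library was left out. For GSK-LSD1 against wild type the count of 11 became 5 with library size scaling and lay between 0 and 13 when each library was left out. Between treated and untreated mutants the count of 0 became 1 (Kcna5) with no filter and was 0 without each library. Over all genes the 238 calls for Shank3 vehicle became 35, 807, 602, 137 and 11 under those 5 settings, 524 with the 4 libraries alone and 140 with length and GC offsets, and lay between 6 and 656 without each library. For GSK-LSD1 against wild type the 491 calls over all genes became 253 with library size scaling, 962 with no filter and 782 by DESeq2, and lay between 6 and 631 without each library. Between treated and untreated mutants 20 became 106 with no filter and 35 by DESeq2, and lay between 10 and 83 without each library.

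Partner genes past the threshold in Shank3 vehicle went from 1 to 0 with library size scaling, limma-voom, the fit without the robust option or length and GC offsets, and lay between 0 and 1 without each library. For GSK-LSD1 against wild type 3 became 1 with library size scaling, without the robust option, with 4 libraries or with length and GC offsets, 5 by DESeq2, and lay between 0 and 3 without each library.

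With the replicate block, 4, 0 and 9 members passed for Shank3 vehicle against wild type, GSK-LSD1 against Shank3 vehicle and GSK-LSD1 against wild type, with Kcnj10 called higher and Kcnh1 no longer called in the first. Same-numbered libraries deviated together with r = -0.080, -0.070 and 0.16 across genes, so the numbers were not taken to pair the mice.

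For 73 results on single genes, not all members, there were 1168 alternative values. Of these, 1038 kept the direction and call, 89 lost and 39 gained a call, and 2 turned in sign. Both are Kcng1 between treated and untreated mutants, at 0.035, which was -0.067 without Shank3 vehicle replicate 2 and -0.072 without GSK-LSD1 replicate 1, within a range of -0.072 to 0.15 without each library. Signs of members outside these 73 results also turned. With library size scaling the 54 negative members became 47 for Shank3 vehicle against wild type and 48 for GSK-LSD1 against wild type. The cause of these shifts was not tested.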
